A study of Mus musculus with 4 samples.

Results

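The lungs of LAIR1KO mice bearing B16/F10, a transplantable mouse melanoma line, were compared with the lungs of LAIR1KO mice without tumor. Each condition was a single droplet library of gene expression, in which hashtag antibodies marked cells from 3 mice. The question was how the gated cell types of a lung without LAIR1 differed when melanoma was present, and whether that difference was the same from one cell type to the next. Barcodes with transcripts of 1 lineage only and 1 hashtag entered the comparison, which left 1205 cells in the LAIR1KO normal library and 2191 in the LAIR1KO tumor-bearing library, 3396 of the 15793 barcodes kept from all libraries of the series. The series also holds a WT normal and a WT tumor-bearing library of 3 hashtags each, with 3461 such cells. They appear below only where the LAIR1KO response is set against the WT response. The labels name no strain, age, tumor dose, route or time after injection, so that the tumor-bearing group is known here as lungs with B16/F10 and no more.

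LAIR1 is an inhibitory receptor on leukocytes that binds collagen and carries tyrosine motifs in its cytoplasmic tail that recruit phosphatases. In the lung, interstitial macrophages, which sit in the collagen-rich space between alveoli and around vessels, express it. Melanoma cells that reach the lung meet neutrophils, macrophages, capillary endothelium and fibroblasts, each of which can respond to a growing tumor with its own set of genes.

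The genotype label was checked first. Lair1 (mm10 chromosome 7, 4003402 to 4063204, minus strand) had 6 UMIs (unique molecular identifiers, which count captured molecules) in the LAIR1KO normal library and 3 in the LAIR1KO tumor-bearing library, against 655 and 1347 in the WT libraries. Among interstitial macrophage-gated cells, 0 of 468 LAIR1KO normal cells held a Lair1 UMI, which allows a share of cells with a UMI of up to 0.641% (exact 95% limit 0.785%) at a median of 4524.5 UMIs per cell, and 1 of 762 LAIR1KO tumor-bearing cells did. In WT lung 55.6 and 58.9% of these cells held one. The tumor label was checked with 5 melanocyte genes (Pmel, Mlana, Tyr, Dct, Tyrp1). They summed to 2823 UMIs in the LAIR1KO tumor-bearing library and to 34 in the LAIR1KO normal library, and 5 barcodes held 2751 of the former. Barcodes with at least 2 of these genes and 3 UMIs made up 0.113, 0 and 0.203% of tumor-bearing replicates 1, 2 and 3. The label was thus checked for the library, and no such barcode was assigned to replicate 2. In the WT tumor-bearing library the 5 genes summed to 126 UMIs, with 1 such barcode, and in the WT normal library to 35 UMIs.

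The LAIR1KO libraries held 28034709 (normal) and 25877517 (tumor-bearing) gene UMIs, with a median of 5898.5 and 4828 UMIs per kept barcode, and they shared 4 barcode sequences. By Xist both LAIR1KO groups were female, whereas the WT normal group was male by Ddx3y. The files name the hashtags Mouse_1 to Mouse_3, and the labels say no more of them than that they are replicates. Each group is 1 library, so that group and library cannot be told apart. Many barcodes of the LAIR1KO normal library carried transcripts of more than 1 lineage. These made up 49.7, 34.1 and 39.3% of the assigned barcodes in its 3 replicates against 7.81, 8.22 and 10.5% in the tumor-bearing replicates (exact permutation test, two-sided, p = 0.1, the smallest that 3 against 3 allows), and 14.3 ± 1.36% and 11.9 ± 0.368% (SD, n = 3) in WT lung. The commonest pair was endothelial with mesenchymal, in 582 barcodes of the normal and 60 of the tumor-bearing library. LAIR1KO normal replicate 1 stood apart from replicates 2 and 3: 76.0% of its single-lineage cells were endothelial, against 7.30 and 7.16%. For shares and for genes that passed within LAIR1KO lung, results whose direction or call rests on it are given with and without it. The comparison with the WT response was not run without it.

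The lungs with melanoma held larger shares of alveolar macrophages, natural killer (NK) cells, T cells and fibroblasts among single-lineage cells. Of 13 gated types, these 4 passed at an adjusted p under 0.05 (edgeR quasi-likelihood model of the numbers of cells, Benjamini-Hochberg), all of them higher with tumor. Fewer cells of a type and more of the others cannot be told apart in shares.

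Alveolar macrophages, the resident phagocytes of the air space that clear surfactant, made up 0.826, 0.592 and 0% of the single-lineage cells in the normal replicates and 3.39, 5.78 and 4.55% in the tumor-bearing replicates. They were 6 cells in all against 97, and every tumor-bearing replicate lay above every normal one (log2 difference 3.15 ± 0.637 SE, adjusted p = 4.50e-04). Counted over each library without regard to hashtags, 8 barcodes against 109 gave a log2 ratio of 3.09. NK cells, lymphocytes that kill cells without prior priming, rose from 0.275, 0.197 and 0.299% to 2.89, 1.31 and 2.10%, that is from 3 cells to 48 (log2 difference 2.98 ± 0.701 SE, adjusted p = 0.00147). Both of these calls held in every alternative run that gave a test, with any 1 replicate left out. T cells stood at 0, 0.394 and 0.597% in normal lung and at 1.51, 0.933 and 1.98% with tumor, 4 cells against 34 (log2 difference 2.11 ± 0.717 SE, adjusted p = 0.0283). The T cell call was lost when LAIR1KO normal replicate 1 or 2, or tumor-bearing replicate 1 or 3, was left out, with log2 differences of 1.63 to 2.30. Library-wide log2 ratios were lower for the lymphocytes, 2.19 for NK cells and 1.32 for T cells. Hashtag loss differed between the groups for these types: 57.14% of the 7 NK cells and 55.56% of the 9 T cells of normal lung had no single hashtag, against 5.882% of 51 and 5.556% of 36 with tumor.

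Fibroblasts, the collagen-making cells of the interstitium, made up 3.58, 10.8 and 8.96% in normal lung and 17.3, 13.2 and 23.3% with tumor, 98 cells against 409 (log2 difference 1.20 ± 0.444 SE, adjusted p = 0.0387). The groups did not overlap. Without LAIR1KO normal replicate 1 the difference was 0.86 with an adjusted p of 0.0646, and without tumor-bearing replicate 1 or 3 the call was also lost (1.22 and 0.96). The barcodes left out for several lineages move with this result. Barcodes with mesenchymal transcripts alone were 314 in the normal and 1218 in the tumor-bearing library. Those with mesenchymal and other transcripts together were 943 and 222. The 2 kinds combined made 32.9 and 31.4% of all kept barcodes. Among hashtag-assigned barcodes they made 37.8, 34.3 and 37.6% in the normal replicates. In the tumor-bearing replicates they made 18.9, 15.6 and 25.1%, lower without overlap and opposite in direction to the fibroblast share. Of the fibroblasts with 1 lineage, 68.4 and 65.9% had no single hashtag.

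B cells had 0.551, 0.986 and 0.896% in normal lung and 1.88, 1.68 and 2.45% with tumor, without overlap, and did not pass (log2 difference 1.27, adjusted p = 0.0740). Epithelial cells did not pass either (1.12, adjusted p = 0.0825). With all hashtag-assigned cells as the denominator, B cells (1.86, adjusted p = 0.00702), epithelial cells (1.71, adjusted p = 0.00702) and interstitial macrophages (1.32, adjusted p = 0.0231) passed. Barcodes of several lineages entered that denominator and not the numbers of a type. With them counted, barcodes with epithelial transcripts made 12.1, 10.9 and 14.8% of assigned normal barcodes and 4.98, 5.54 and 9.05% with tumor. Those with B cell transcripts made 1.92, 0.896 and 1.06% against 2.15, 1.68 and 2.44%. Those with mononuclear phagocyte transcripts made 10.0, 21.5 and 20.3% against 30.5, 26.5 and 38.8%. B cells also passed with hashtags called by their lead (adjusted p = 0.0190), and epithelial cells without normal replicate 3 (1.61, adjusted p = 0.0175). For interstitial macrophages, neutrophils and endothelial cells the replicates of the groups overlapped. Interstitial macrophages made up 3.86, 18.1 and 17.6% against 22.5, 17.0 and 28.0% (adjusted p = 0.176), and over whole libraries their shares were 19.3 and 19.6%. Of their 468 normal and 762 tumor-bearing barcodes, 64.74 and 33.07% had no single hashtag. For epithelial cells this loss was 74.07 and 58.16%. Its part in the results was not tested. Neutrophils made up 13.2, 57.6 and 57.3% against 35.8, 32.5 and 16.4% (log2 difference -0.60, adjusted p = 0.274). Without LAIR1KO normal replicate 1 their share was lower with tumor and passed (-1.03, adjusted p = 0.00960), as it did when hashtags were called by their lead over the next one (-0.82, adjusted p = 0.0452). Endothelial cells made up 76.0, 7.30 and 7.16% against 7.90, 21.6 and 8.74%. Their log2 difference was -1.25 (adjusted p = 0.113) with all replicates and 0.79 without LAIR1KO normal replicate 1. Among single-lineage cells its direction is thus set by that replicate. With that replicate kept, the endothelial share passed as lower with tumor when normal replicate 2 (-1.72), normal replicate 3 (-1.71) or tumor-bearing replicate 2 (-1.85) was left out. Barcodes with endothelial and other transcripts together, which were left out, numbered 1140 in the normal and 230 in the tumor-bearing library. With them counted, barcodes with endothelial transcripts made 86.4, 33.0 and 36.5% of assigned normal barcodes. With tumor they made 9.16, 23.8 and 10.8%, lower without overlap. The difference between the LAIR1KO and the WT response was tested for each share, and the smallest adjusted p was 0.108. Mean shares in WT normal and tumor-bearing lung were 0.0595 and 3.93% for alveolar macrophages and 0.995 and 1.59% for NK cells. They were 1.24 and 1.63% for T cells and 21.8 and 16.2% for fibroblasts. The fibroblast means of LAIR1KO normal and tumor-bearing lung were 7.79 and 18.0%, so that LAIR1KO normal lung had the lowest.

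**Figure D1:**
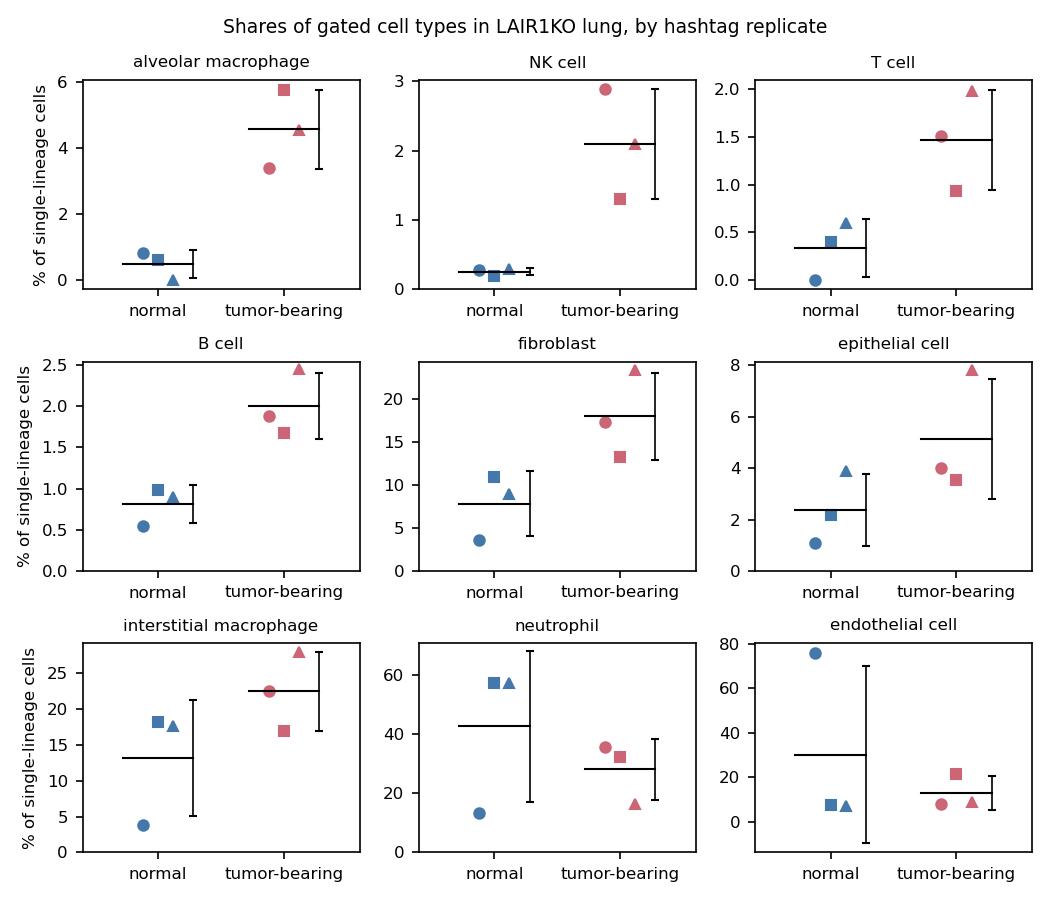
Share of each gated cell type among single-lineage cells with 1 hashtag (vertical axes, percent, each on its own scale) in LAIR1KO normal and tumor-bearing lung. Circles, squares and triangles are hashtag replicates 1, 2 and 3, lines are means and bars are SD (n = 3). The alveolar macrophage, NK cell, T cell and fibroblast points of tumor-bearing lung all lie above those of normal lung, and normal replicate 1 lies far from the other two for endothelial cells and neutrophils.

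Gene expression was compared in UMIs summed per replicate and cell type, given as CPM (counts scaled to library size after TMM normalization), in the 5 types with at least 10 cells in enough replicates. Few genes passed (edgeR quasi-likelihood test, adjusted p under 0.05): 6 of 3222 in neutrophils (0.186%), 7 of 5270 in endothelial cells (0.133%), 1 of 8643 in fibroblasts (0.0116%), 7 of 7146 in epithelial cells (0.098%) and 0 of 7047 in interstitial macrophages (0%). In simulated counts 200 genes per type were changed, some of them by more than 2-fold. The test recovered 50 to 64% of the 2-fold genes in macrophages, neutrophils and endothelial cells, 33% in fibroblasts and 17% in epithelial cells. Recovery thus differed between types, and the numbers of passing genes give no order of response. Recovery with fewer changed genes was not tested. Across the 5 types, 19 genes passed in 1 type, 1 gene (Scgb1a1) in 2 types, and none in 3 or more.

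In neutrophils 3 genes fell in melanoma-bearing lung and 3 rose, with 532 normal and 600 tumor-bearing cells behind them. Tsc22d3 encodes GILZ, a leucine zipper protein induced by glucocorticoids that restrains inflammatory signalling. Its level was 405, 484 and 353 CPM in the normal replicates and 90.2, 182 and 183 CPM in the tumor-bearing ones. No tumor-bearing replicate came near the normal range, and the log2 fold change was -1.56 ± 0.262 (SE, adjusted p = 0.00372). The call was lost without LAIR1KO normal replicate 2 (-1.37, adjusted p = 0.198) or without tumor-bearing replicate 1 (-1.20, adjusted p = 0.0792).

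Klf2, a transcription factor that holds leukocytes in a quiescent state, stood at 856, 728 and 637 CPM in normal lung and at 462, 456 and 395 CPM with tumor (log2 fold change -0.71 ± 0.15 SE, adjusted p = 0.0319). Stk17b, a serine/threonine kinase linked to lymphocyte activation thresholds and apoptosis, stood at 2128, 1786 and 1854 CPM against 1137, 1313 and 1233 CPM (-0.63 ± 0.125 SE, adjusted p = 0.0186). Neither set of replicates overlapped, and the tumor-bearing values lay close together. Thbs1 encodes thrombospondin 1, a secreted glycoprotein that inhibits angiogenesis and activates TGF-beta. It was abundant in these cells, at 5696, 7310.1 and 7151 CPM in normal lung and 10139, 9499.9 and 9065 CPM with tumor (0.50 ± 0.105 SE, adjusted p = 0.0319). Tspan31, a tetraspanin membrane protein, rose from 56.3, 21.4 and 34.4 CPM to 134, 70.4 and 116 CPM (1.87 ± 0.358 SE, adjusted p = 0.0176). These 4 calls were each lost in several runs with 1 replicate left out: Klf2 without any but LAIR1KO normal replicate 3, Stk17b and Thbs1 without any but tumor-bearing replicate 3, and Tspan31 without LAIR1KO normal replicate 2 or 3 or tumor-bearing replicate 1. Over all alternatives the log2 fold changes kept their signs, at -0.81 to -0.59 for Klf2, -0.69 to -0.56 for Stk17b, 0.41 to 0.60 for Thbs1 and 1.46 to 2.07 for Tspan31.

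The immediate early genes, transcription factors and phosphatases induced within minutes of a stimulus, leaned the same way as Klf2. Of 16 measured in neutrophils, 13 had a fold change below 0 and 1 fell past the threshold (Klf2 itself). The median log2 fold change was -0.295, against -0.008 over all genes tested, and 7 members were lower with no overlap between replicates, where 7.76% of all genes were. Egr1 stood at 1272, 718 and 640.1 CPM against 333, 414 and 636 CPM (adjusted p = 0.0932), with the highest tumor-bearing replicate next to the lowest normal one. Nr4a1, an orphan nuclear receptor, stood at 1216, 811 and 709 CPM against 506, 505 and 650.2 CPM (adjusted p = 0.122). The glucocorticoid response genes as a list did not lean as Tsc22d3 did: 6 of 12 measured were above 0 and 6 below, with a median of 0.026.

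All 6 measured CC chemokine genes were above 0 in neutrophils (median 0.656) and 3 were higher without overlap, where 6.67% of all genes were, but none passed. Ccl4, a chemokine that attracts monocytes and lymphocytes, stood at 653, 560.2 and 571 CPM in normal lung and 1267, 688 and 1512 CPM with tumor (0.99 ± 0.250 SE, adjusted p = 0.122). Mt1, a metal-binding metallothionein, stood at 101, 146 and 103 CPM against 173, 240.3 and 356 CPM (adjusted p = 0.0932). All 12 measured lipid handling genes were above 0 (median 0.361), among them Plin2, a coat protein of lipid droplets, at 203, 187 and 181 CPM against 268, 344 and 294 CPM (adjusted p = 0.166). Interferon-stimulated genes split evenly, with 7 of 14 above 0 and a median of -0.008. Endothelial panel transcripts in the neutrophil gate were lower with tumor, at 0.136 to 0.434 UMIs per 10000 against 0.907 to 1.10, none of the 6 panel genes being at 0 in either group. Their part in these results was not tested.

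**Figure D2:**
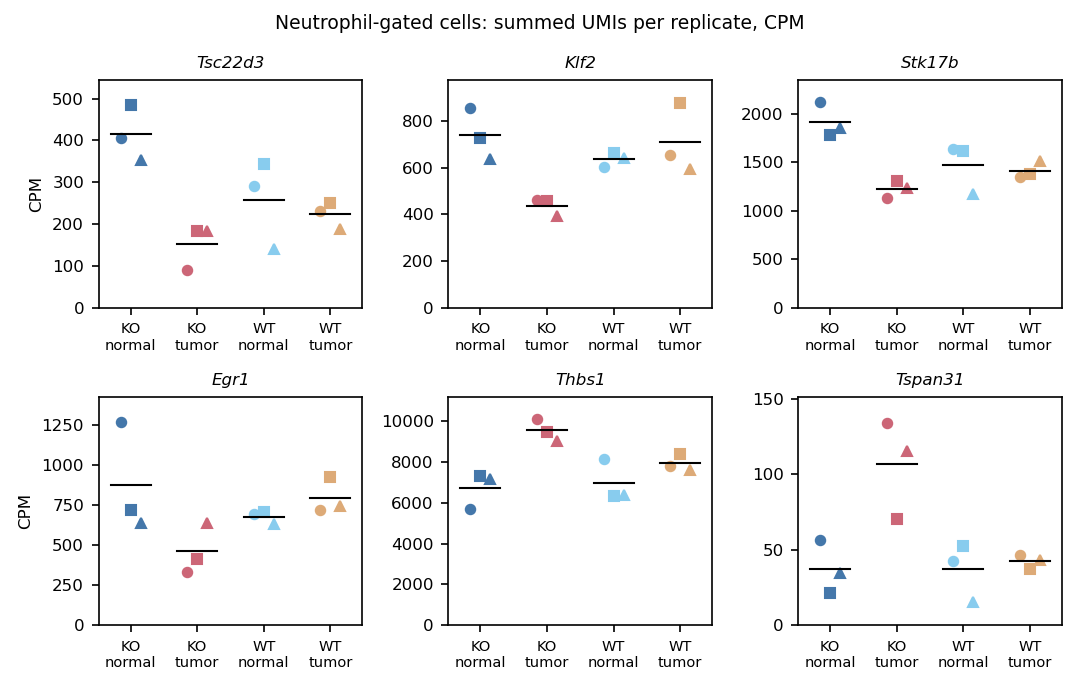
Level of 6 genes in neutrophil-gated cells (vertical axes, CPM from 0) in each of 4 groups. Circles, squares and triangles are hashtag replicates 1, 2 and 3, and lines are means (n = 3). In LAIR1KO lung Tsc22d3, Klf2 and Stk17b are lower and Thbs1 and Tspan31 higher with tumor without overlap, while the nearest Egr1 points of the groups are 636 and 640.1 CPM.

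Scgb1a1 was the only gene that passed in more than 1 cell type. It encodes the club cell secretory protein of the small airways (mm10 chromosome 19, 9083636 to 9087958, minus strand) and is not a gene of blood or vessel cells. In neutrophils it stood at 293, 219.8 and 187 CPM in normal lung and 647, 563 and 602 CPM with tumor (log2 fold change 1.48 ± 0.158 SE, adjusted p = 1.69e-06). In endothelial cells it stood at 139, 131 and 121 CPM against 376, 367 and 559 CPM (1.70 ± 0.193 SE, adjusted p = 3.30e-05). Both calls held in 17 of 17 alternatives. The values in interstitial macrophages (205, 187 and 158 against 357, 912 and 339 CPM, adjusted p = 0.149) and in fibroblasts (177, 109 and 129.7 against 287, 195 and 219.7 CPM, adjusted p = 0.173) also did not overlap. In the tumor-bearing library 1 macrophage barcode held 279 Scgb1a1 UMIs and 1 fibroblast barcode 276.

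Over whole libraries, without regard to hashtags, the ratio of Scgb1a1 in tumor-bearing to normal lung was 2.42 in interstitial macrophages, 2.57 in neutrophils, 3.04 in endothelial cells, 2.27 in fibroblasts and 2.93 in B cells. It was lower in alveolar macrophages (1.10), NK cells (1.38) and T cells (1.70), with 4 to 14 UMIs each in normal lung, and was 0.733 in the epithelial gate. Barcodes of several lineages had a ratio of 0.373, but 1 normal barcode held 29141 of their 31619 Scgb1a1 UMIs. Without the barcode of most Scgb1a1 UMIs in each group the ratio there was 2.09, that of NK cells 2.35 and that of interstitial macrophages 2.10. At least 1 Scgb1a1 UMI was seen in 35.2% of normal and 58.1% of tumor-bearing neutrophils, whose median depths were 1636 and 1512 UMIs. Within the epithelial gate single barcodes held up to 44903 (normal) and 26872 (tumor-bearing) Scgb1a1 UMIs. Sftpc, the surfactant protein gene of alveolar type 2 cells and the other abundant epithelial transcript, did not move with it: its ratios were 0.913, 1.24, 1.16 and 0.679 in interstitial macrophages, neutrophils, endothelial cells and fibroblasts. Scgb3a2, another airway secretoglobin, had ratios of 2.60, 2.49, 2.09 and 1.49 in these gates, from 9 to 79 UMIs a group. In tumor-bearing interstitial macrophages 1 barcode held 41 of 79 Scgb3a2 UMIs, and without the highest barcode of each group the ratio was 1.42. In droplet data RNA set free from other cells is counted in every barcode, and its part in these values was not tested.

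Gm47283 is a gene model that mm10 lists on chromosome Y at 90784738 to 90816464, although both LAIR1KO groups were female. Reads of such a model may be shared with a near-identical copy elsewhere, so its level is uncertain. It was singled out after its values were seen. In endothelial cells it stood at 89.2, 69.8 and 73.8 CPM against 253, 249 and 282 CPM (1.66 ± 0.241 SE, adjusted p = 0.00115), and this call held in 17 of 17 alternatives. Over whole libraries it was higher with tumor in all 9 gates with a value, by ratios of 1.92 (B cells) to 5.19 (neutrophils).

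**Figure D3:**
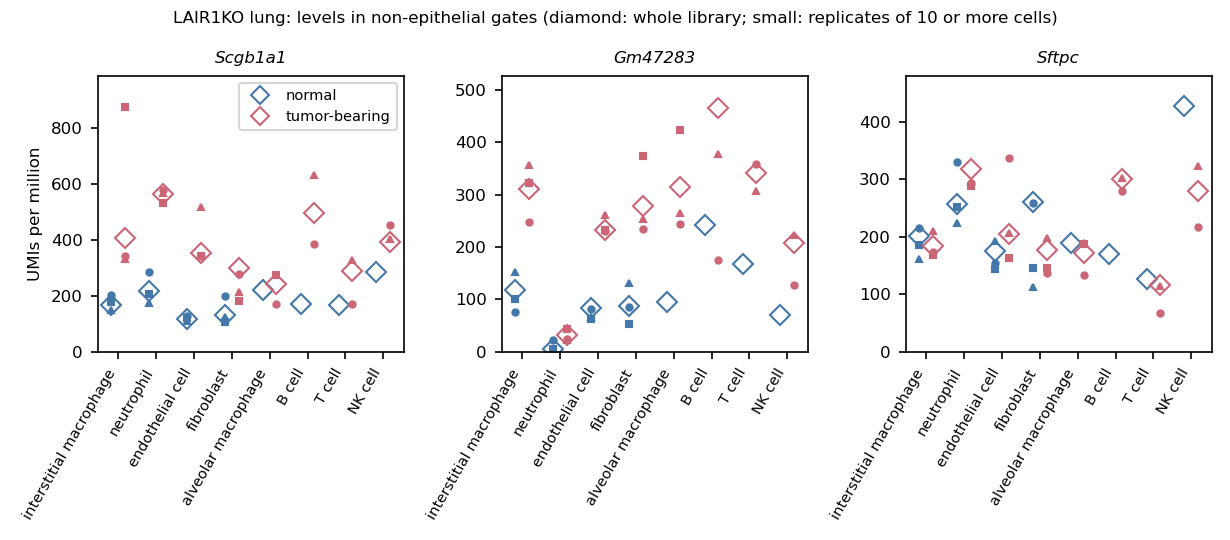
Level of Scgb1a1, Gm47283 and Sftpc (vertical axes, CPM without TMM, from 0) in 8 non-epithelial gates of LAIR1KO lung. Diamonds are whole libraries (1 value a group, no error), small symbols the hashtag replicates with at least 10 cells. The diamonds of Scgb1a1 and Gm47283 lie higher with tumor in the 4 largest gates, although the fibroblast replicates of Scgb1a1 overlap on this scale, while Sftpc has no common direction.

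In endothelial cells, 337 normal against 254 tumor-bearing, 4 genes fell and 3 rose. The median depth of these cells was 5396 UMIs in normal and 2512.5 UMIs in tumor-bearing lung, and its part in the results was not tested. The fallen genes were Ogn, Mfap4, Gpx3 and Gsn. Ogn encodes osteoglycin, a small leucine-rich proteoglycan of the matrix, and stood at 120.0, 56.7 and 114 CPM in normal lung against 20.5, 16.9 and 29.0 CPM with tumor (log2 fold change -2.25 ± 0.356 SE, adjusted p = 0.00285). Mfap4, a microfibril-associated glycoprotein of elastic fibres, stood at 217, 74.2 and 181 CPM against 54.6, 31.1 and 37.3 CPM (-2.17 ± 0.361 SE, adjusted p = 0.00454). Replicate 2 was the lowest of the normal replicates in both genes, and still lay above every tumor-bearing one. Gpx3, a secreted glutathione peroxidase, stood at 359, 314 and 295 CPM against 129.8, 90.4 and 166 CPM (-1.40 ± 0.242 SE, adjusted p = 0.00609). Gsn, the actin-severing protein gelsolin, stood at 337, 157 and 349 CPM against 61.5, 124 and 74.5 CPM (-1.62 ± 0.292 SE, adjusted p = 0.00922).

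These 4 genes were far more abundant in the fibroblast gate, where none passed the test: Ogn reached 1249 to 1964 CPM there, Mfap4 1482 to 2632 CPM, Gpx3 1643 to 3092 CPM and Gsn 8749.9 to 11512 CPM. The genes of the mesenchymal panel itself, which the gate caps, summed to 0.477 to 0.726 UMIs per 10000 in normal and 0.575 to 0.870 in tumor-bearing endothelial cells. When only endothelial barcodes with at most 1 UMI of other lineages were kept, an alternative chosen after the data were seen, Mfap4 had -2.13 (adjusted p = 0.113), Gpx3 -1.43 (adjusted p = 0.189) and Gsn -1.54 (adjusted p = 0.189). Without LAIR1KO normal replicate 1, which held 276 of the 337 normal endothelial cells, all 4 calls were lost, with log2 fold changes of -1.87 (Ogn), -1.62 (Mfap4), -1.28 (Gpx3) and -1.37 (Gsn). Without tumor-bearing replicate 2 the calls of Ogn, Mfap4 and Gpx3 were lost, and without tumor-bearing replicate 1 or 3 that of Gsn. With hashtags called by their lead all 4 calls were lost as well. The values there were -1.69 for Ogn (adjusted p = 0.109), -1.57 for Mfap4 (0.0890), -1.06 for Gpx3 (0.179) and -1.11 for Gsn (0.136).

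Besides Scgb1a1 and Gm47283, Osmr rose in endothelial cells. It encodes the receptor chain for oncostatin M, a cytokine of the interleukin 6 family. It stood at 99.2, 96.0 and 121 CPM in normal lung and at 369, 169 and 191 CPM with tumor, and replicate 1 was the highest (1.15 ± 0.234 SE, adjusted p = 0.0388). The call was lost without LAIR1KO normal replicate 1 or 2 or tumor-bearing replicate 1 (0.81 to 1.14). Over all alternatives it held in 8 of 17, with log2 fold changes of 0.81 to 1.39. All 6 measured MHC class II genes were below 0 in endothelial cells (median -1.14, against -0.003 over all genes). None passed and none was free of overlap: Cd74, the invariant chain, stood at 1358, 436 and 1302 CPM against 1059, 206 and 174 CPM. Of 15 measured endothelial activation and angiogenesis genes, 9 were above 0 and 6 below, with a median of 0.062 and none past the threshold.

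Hspb1 was the only gene to pass in fibroblasts. It encodes the small heat shock protein HSP27, which binds unfolded proteins and actin. Its level was 1228, 1714 and 1748 CPM in normal and 2729.5, 3179.8 and 2916 CPM in tumor-bearing lung (log2 fold change 0.88 ± 0.138 SE, adjusted p = 0.0281). The replicates lay well apart, yet the adjusted p rose to between 0.0588 and 0.157 whichever single replicate was left out, with log2 fold changes of 0.76 to 0.98. Among 12 heat shock genes 11 were above 0 (median 0.223, against 0.015 over all genes), 1 rose past the threshold and 3 were higher without overlap, where 6.94% of all genes were. Hspd1, the mitochondrial chaperonin, was one of them at 165, 113 and 121 CPM against 216, 231 and 253 CPM (adjusted p = 0.199).

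All 20 collagen and matrix genes measured in fibroblasts were above 0, by a median of 0.208, and none passed. Of them 3 were higher without overlap, where 6.94% of all genes were. One was Col4a1, a chain of basement membrane collagen, at 367, 373 and 356 CPM against 412, 479.8 and 472 CPM (0.31 ± 0.139 SE, adjusted p = 0.740). Of 17 cholesterol and fatty acid synthesis genes, 12 were above 0 (median 0.541), 7 higher without overlap and 1 lower, where 6.94% of all genes were higher and 5.29% lower, and none passed. Insig1, which holds the sterol sensor complex in the endoplasmic reticulum, stood at 63.3, 94.7 and 121 CPM against 163, 192 and 184 CPM (adjusted p = 0.316). Idi1, an isomerase of the isoprenoid pathway, stood at 50.7, 50.3 and 41.8 CPM against 81.3, 106 and 92.6 CPM (adjusted p = 0.231). Scd1, the desaturase that makes monounsaturated fatty acids, was the lower one, at 342, 115 and 105 CPM against 72.0, 54.3 and 76.8 CPM (adjusted p = 0.468). Endothelial panel transcripts in the fibroblast gate summed to 0.879 to 2.15 UMIs per 10000 in normal and 0.401 to 0.636 in tumor-bearing lung, with none of the 6 genes at 0, and their part was not tested.

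In interstitial macrophages, 165 normal cells (14 of them from replicate 1) against 510, no gene passed the edgeR test at an adjusted p under 0.05, while 518 of 7047 had an unadjusted p under 0.05. DESeq2, whose filter left 1036 genes with an adjusted p, called 12. Among these 12, Odc1, Folr2, Gdf15, Rhob, Hmox1 and Ifitm2 rose beside Scgb1a1 and Gm47283, and Cxcl13, Cxcr4 and Dennd4a fell. Rhob, Hmox1, Ifitm2, Cxcr4 and Dennd4a were not followed without LAIR1KO normal replicate 1.

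Folr2, a folate receptor that marks perivascular macrophages, stood at 529.8, 383 and 489 CPM in normal lung and 683, 743 and 801 CPM with tumor (log2 fold change 0.71 ± 0.145 SE by edgeR, adjusted p = 0.149, and adjusted p = 0.00460 by DESeq2). Gdf15, a stress-induced cytokine of the TGF-beta family, stood at 129.8, 324 and 505 CPM against 729.9, 916 and 614 CPM (edgeR adjusted p = 0.228, DESeq2 adjusted p = 0.0144). Odc1, the rate-limiting enzyme of polyamine synthesis, stood at 32.4, 179 and 193 CPM against 336, 412 and 319.7 CPM (edgeR adjusted p = 0.18, DESeq2 adjusted p = 0.00435). In both Gdf15 and Odc1 the lowest value was that of normal replicate 1, without which the log2 fold changes were 0.87 and 0.93 by edgeR (adjusted p = 0.187 and 0.0830) and both passed by DESeq2 (adjusted p = 0.0297 and 0.0100). Cxcl13, a chemokine that draws B cells, went the other way, at 227, 296 and 270.3 CPM against 126, 91.0 and 122 CPM (edgeR adjusted p = 0.292, DESeq2 adjusted p = 0.0347, and 0.232 by DESeq2 without normal replicate 1).

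The marker genes of Lyve1-high interstitial macrophages, a perivascular subset with scavenger receptors, were all above 0: 16 of 16, with a median of 0.388 against 0.001 over all genes. Without overlap 4 were higher, where 7.14% of all genes were, among them Pf4 (platelet factor 4, a chemokine) at 2865, 3027 and 3372 CPM against 3838, 4469 and 3985 CPM and Fcna (ficolin A, a lectin of the complement system) at 151, 136 and 96.5 CPM against 234, 335 and 195 CPM. The 8 measured MHC class II genes were all below 0 (median -0.516), 3 of them lower without overlap, where 6% of all genes were. H2-DMa, which loads peptides onto class II molecules, stood at 324, 341 and 241 CPM against 207, 190.3 and 191 CPM. The 11 measured cell cycle genes were also all below 0 (median -0.460), 4 without overlap. One was Top2a, a topoisomerase of dividing cells, at 21.6, 72.4 and 22.5 CPM against 13.7, 10.3 and 12.4 CPM. Of 17 interferon-stimulated genes 13 were above 0 (median 0.476) and 3 higher without overlap. One of them was Ifit2 at 0, 4.26 and 0 CPM against 29.6, 29.0 and 28.6 CPM (adjusted p = 0.149). No member of these 4 lists passed by edgeR, and Folr2 of the first passed by DESeq2. Endothelial panel transcripts in this gate summed to 0.638 to 0.967 UMIs per 10000 in normal and 0.335 to 0.397 in tumor-bearing lung, where 1 of the 6 genes was at 0, and their part was not tested.

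Epithelial cells rested on 11 and 13 cells of normal replicates 2 and 3, since the 4 cells of replicate 1 were too few to use, against 118 with tumor. Here 1 gene rose and 6 fell. Ndnf, a secreted glycoprotein, stood at 28.4 and 15.0 CPM in normal replicates 2 and 3 and at 139, 206 and 162 CPM with tumor (log2 fold change 3.05 ± 0.520 SE, adjusted p = 0.0211). Id1, an inhibitor of basic helix-loop-helix transcription factors, stood at 284 and 265 CPM against 7.50, 80.2 and 12.5 CPM (-3.50 ± 0.517 SE, adjusted p = 0.0112). The other fallen genes, Gsto1, AU040972, Lypd2, Cyp2f2 and Gsta3, were each highest in normal replicate 3: Gsto1, a glutathione transferase, stood at 56.7 and 875 CPM against 22.5, 22.9 and 35.7 CPM. The airway genes Scgb1a1 and Scgb3a2, which did not pass here, were also highest in that replicate. Without TMM, Scgb1a1 had 665 and 254390 CPM in normal replicates 2 and 3 against 602, 745 and 8107 CPM with tumor. Scgb3a2 had 0 and 20360 CPM against 3.67, 17.9 and 716 CPM. The part of airway cells in the fallen genes was not tested. With the barcodes of highest UMI number left out no epithelial gene passed, and Gsto1 (0.12) and Cyp2f2, a cytochrome P450 of club cells (0.26), had values above 0. With hashtags called by their lead, Ndnf had 1.07 and Id1 -1.68 (adjusted p = 0.668 for both). Without normal replicate 3, which leaves 1 normal replicate that is assumed to vary like the other groups, Ndnf had 2.55 (adjusted p = 0.464), Id1 -3.54 (adjusted p = 0.102), and Lypd2 1.55. The Id1 and Ndnf calls were also lost without tumor-bearing replicate 1 or 3.

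Whether the response was the same in every type was tested directly, with the animal as a block, in the 4 types that had 10 cells in all 6 LAIR1KO replicates (interstitial macrophages, neutrophils, endothelial cells and fibroblasts). It differed across types for 42 of 8256 genes (0.509%), 2 of them genes of the gates and 6 of them genes that also passed within a type. Tsc22d3 was the first of these 6 (adjusted p = 2.34e-04). It fell in neutrophils, and elsewhere its log2 fold changes were 0.16 in interstitial macrophages, 0.56 in endothelial cells and 0.37 in fibroblasts. In epithelial cells, which were not in this test, it was -0.79. Its values in interstitial macrophages, 270.3, 288 and 257 CPM against 243, 387 and 296 CPM, overlapped. This difference across types kept an adjusted p of at most 0.00334 with any single replicate left out. It had 0.0138 with hashtags called by their lead, and was lost (0.231) with at most 1 UMI of other lineages, where neutrophils and endothelial cells alone were compared.

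Gpx3 (adjusted p = 2.87e-04), Mfap4 (8.17e-04), Gsn (0.00174) and Ogn (0.00274) fell in the endothelial gate, with fold changes of 0.48, 0.39, 0.10 and 0.17 on the log2 scale in fibroblasts. Thbs1 (0.0199) rose in neutrophils and had -1.27 in interstitial macrophages, where its replicates ranged from 43.3 to 795 CPM in normal lung. The Thbs1 difference was lost without LAIR1KO normal replicate 3 (adjusted p = 1) or tumor-bearing replicate 2 (0.506). The Gsn difference was lost without LAIR1KO normal replicate 1 (0.139), and those of Gpx3 and Ogn without tumor-bearing replicate 2 (0.0721 and 0.117). With hashtags called by their lead, those of Gsn (0.283), Ogn (0.0910) and Thbs1 (0.193) were lost. Asking for at least 20 cells per replicate left neutrophils and endothelial cells alone. There the differences of Gpx3 (0.379), Mfap4 (0.111), Ogn (0.408) and Thbs1 (0.909) were lost. Scgb1a1 was not among the 42 genes (adjusted p = 0.926). Among barcodes with at most 1 UMI of other lineages, where only neutrophils and endothelial cells had enough cells, 1 gene differed between types.

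Some of the 36 genes that passed in no single type were muscle or endothelial genes measured in the fibroblast gate. Acta2, smooth muscle actin, stood there at 12.7, 30.2 and 8.37 CPM in normal lung and 251, 20.4 and 332 CPM with tumor, high in tumor-bearing replicates 1 and 3 and not in replicate 2. Myh11, the smooth muscle myosin heavy chain, had 0 UMIs in all normal replicates and 43.0, 0 and 41.7 CPM with tumor. Adgrf5, a receptor of endothelial and type 2 cells, was lower, at 101, 46.3 and 29.3 CPM against 12.8, 4.53 and 6.62 CPM.

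**Figure D4:**
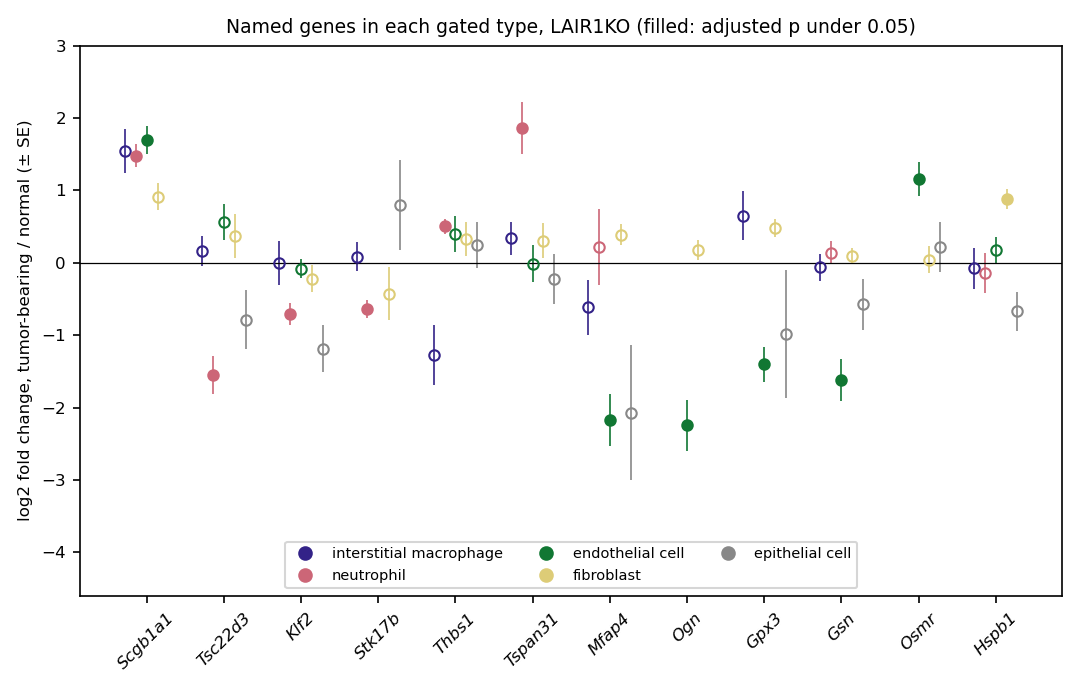
Log2 fold change, tumor-bearing over normal LAIR1KO lung (vertical axis, with SE bars), for 12 genes (horizontal axis) in each of 5 gated cell types (colours). Filled points passed at an adjusted p under 0.05, a missing point means the gene was not tested in that type, and Scgb1a1 in epithelial cells (-5.75) lies off the scale and is not drawn. Scgb1a1 is above 0 in all 4 types shown, Tsc22d3 is far below 0 in neutrophils, and Mfap4, Ogn, Gpx3 and Gsn are below 0 in endothelial cells and not in fibroblasts.

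The LAIR1KO response was set against the WT response by the interaction of genotype and tumor. It differed for 25 of 7047 genes in interstitial macrophages (0.355%), 5 in neutrophils (0.155%), 3 in fibroblasts (0.0347%), 1 in endothelial cells (0.019%) and 1 in epithelial cells (0.014%). Xist was 1 of the genes in each type, since the WT normal group alone was male, and effects of sex and of genotype cannot be told apart in this comparison. In interstitial macrophages Lyve1, the hyaluronan receptor that names the perivascular subset, stood at 400.1, 217 and 328 CPM in LAIR1KO normal and 442, 709.6 and 464 CPM in LAIR1KO tumor-bearing lung, whereas its mean went from 629 ± 156 to 249 ± 54.2 CPM (SD, n = 3) in WT lung (difference of log2 fold changes 2.21 ± 0.322 SE, adjusted p = 0.00223). Fxyd2, a regulatory subunit of the sodium pump, stood at 227, 175 and 196 CPM against 257, 377 and 355 CPM in LAIR1KO lung, and went from 445 ± 117 to 161 ± 29.0 CPM in WT lung (2.26 ± 0.288 SE, adjusted p = 4.64e-04). Within LAIR1KO lung alone neither gene passed (adjusted p = 0.341 for both). Folr2 differed in the same sense (1.15, adjusted p = 0.00828). In all 3 genes the LAIR1KO normal mean lay below the WT normal mean, and the LAIR1KO tumor-bearing mean above the WT tumor-bearing one.

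In the same cells 3 of the genes with a difference below 0 had means in the reverse order. Cx3cr1, the fractalkine receptor, had means of 463 ± 92.1 and 348 ± 23.6 CPM in LAIR1KO lung without and with tumor, and of 303 ± 33.3 and 465 ± 30.4 CPM in WT lung (-1.08, adjusted p = 0.0137). Cxcr4, the receptor of Cxcl12, had 864 ± 228 and 606 ± 58.3 CPM against 478 ± 50.7 and 707 ± 22.3 CPM (-1.13, adjusted p = 0.0143). Mpeg1, a pore-forming protein of phagocytes, followed them (-1.12, adjusted p = 0.0288).

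In neutrophils Oasl2, an interferon-induced gene of the oligoadenylate synthetase family, stood at 383, 372 and 488 CPM in LAIR1KO normal and 439, 389 and 424 CPM in LAIR1KO tumor-bearing lung, whereas WT means were 205 ± 13.4 and 523 ± 9.13 CPM (-1.35, adjusted p = 0.00143). Slfn5 and Slfn4, schlafen genes also induced by interferon, differed in the same sense (-1.59 and -1.06, both with an adjusted p of 0.0358). Without genes on X and Y fewer neutrophil genes than these passed, so that not all of the Oasl2, Slfn5 and Slfn4 calls held there. Within LAIR1KO lung the Oasl2 and Slfn4 values of normal and tumor-bearing replicates overlapped, and Slfn5 stood at 169, 124 and 123 CPM against 120.2, 112 and 116 CPM (adjusted p = 0.890). In fibroblasts the Hspb1 means of WT lung went the other way, from 2581 ± 282 to 1973 ± 241 CPM (difference 1.27 ± 0.192 SE, adjusted p = 0.00830), and H3f3b, a histone H3.3 gene, differed likewise (1.05, adjusted p = 0.0151).

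**Figure D5:**
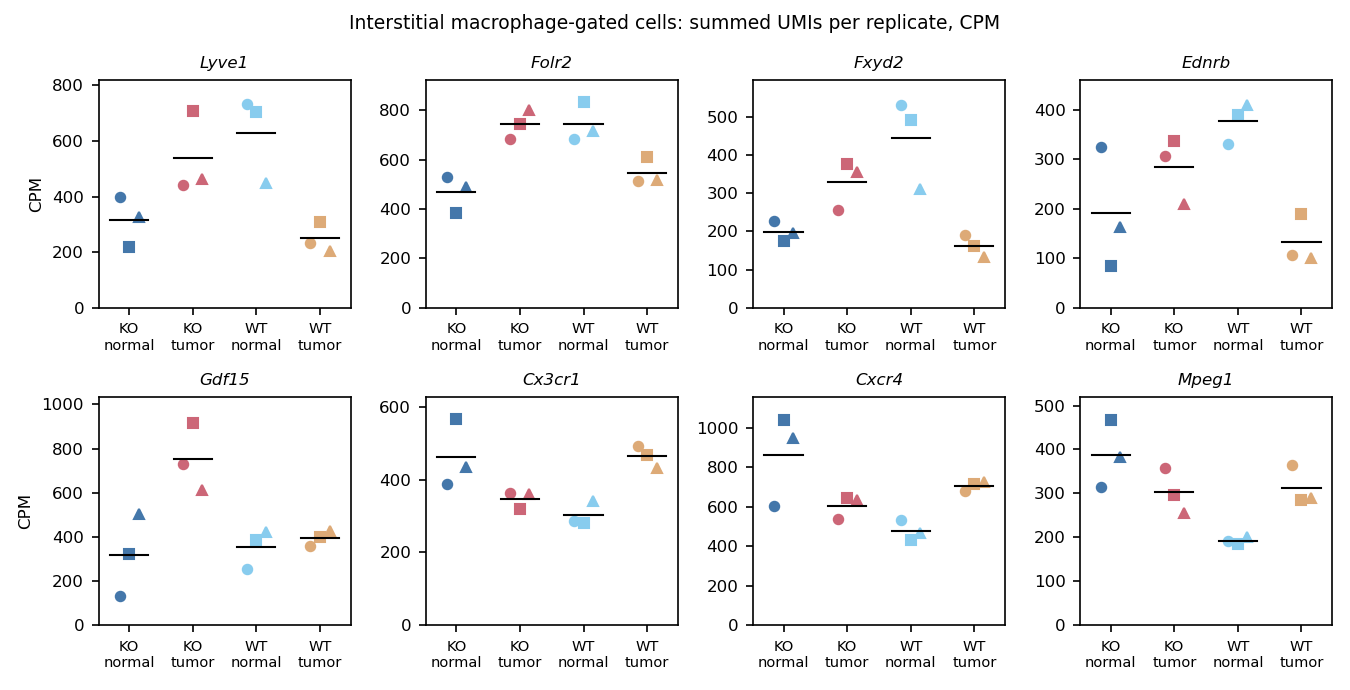
Level of 8 genes in interstitial macrophage-gated cells (vertical axes, CPM from 0) in each of 4 groups. Circles, squares and triangles are hashtag replicates 1, 2 and 3, and lines are means (n = 3). Lyve1, Folr2 and Fxyd2 have higher means with tumor in LAIR1KO lung and lower means in WT lung, and Cx3cr1, Cxcr4 and Mpeg1 the reverse.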

How the data were processed

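Per the labels, lungs were profiled with the 10x Genomics 3' version 3 kit, as gene expression with antibody capture. The authors deposited counts (UMIs per gene and hashtag, whole numbers) for which the submitters' processing notes name mm10, STAR, Cell Ranger 4.0.0, Seurat 3.2.0 and R 4.0.0. Barcodes with at least 300 genes and at most 10% mitochondrial UMIs were kept, and hashtags were assigned with HTODemux (Seurat 5.3.0, quantile 0.99), with 20.26 and 16.59% hashtag doublets and 25.34 and 29.7% without hashtag in LAIR1KO normal and tumor-bearing lung left out. A lineage needed 2 panel genes and 3 UMIs. Barcodes of several lineages were left out, and no other doublet caller was run. UMIs summed per replicate and type (10 cells or more) were tested with edgeR 4.0.16 (R 4.3.3, TMM, filterByExpr, quasi-likelihood, all 12 replicates sharing the spread). DESeq2 1.42.0 was an alternative. SE is the fold change over the root of F. Named genes passed the threshold, up to 6 per direction and type changed 1.5-fold at 20 CPM without overlap, and the further passing genes were added. Genes of the WT comparison follow the same rule, except that overlap was not considered and 20 CPM could be reached in any group. The members and 27 gene lists were chosen with earlier results of these data known. Positions came from Ensembl IDs for 32235 of 32285 genes. List members given as examples, genes called by DESeq2 alone, Mt1, Acta2, Myh11, Adgrf5 and Gm47283 lie outside that rule and were chosen after their values were seen. One gene called by DESeq2 in macrophages is not reported here. The model was tested on simulated counts (200 changed genes, 5 to 11 unchanged genes called in neutrophils, macrophages, endothelial cells and fibroblasts). The test across types recovered 94% of 200 genes changed in fibroblasts alone, and called 14 unchanged genes among 7894 genes tested. Intervals and floors cover counting error only, and p-values measure the spread between hashtags.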

Additional observations from a re-analysis of the deposited data

Results flagged for a closer look

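The response to melanoma differed from that in WT lung, by a test of the difference itself, for these genes of interstitial macrophages, as log2 fold change in LAIR1KO minus WT lung: Fxyd2 2.26, Lyve1 2.21, Prkar2b 2.78, Aqp1 5.42, Fgfr1 2.24, Ednrb 2.41, Itga6 -1.51, F11r -2.12, Cx3cr1 -1.08, Cxcr4 -1.13, Mpeg1 -1.12 and H2-M2 -4.35. Fxyd2 had the smallest adjusted p (4.64e-04) and H2-M2 the largest (0.0299). In neutrophils the differences were Oasl2 -1.35, Slfn5 -1.59 and Slfn4 -1.06, and in fibroblasts Hspb1 1.27 and H3f3b 1.05. Aqp1, a water channel of endothelial and red cells, rested on 10 and 87 UMIs in LAIR1KO macrophages.

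The response differed across cell types within LAIR1KO lung for Tsc22d3 (adjusted p = 2.34e-04), Gpx3 (2.87e-04), Mfap4 (8.17e-04), Gsn (0.00174), Ogn (0.00274) and Thbs1 (0.0199).

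Melanocyte transcripts lay outside the comparisons. The 5 melanoma genes had 2751 UMIs in 5 barcodes of the LAIR1KO tumor-bearing library, 1 of them with no other lineage, and no barcode of the LAIR1KO normal library passed the same gate. Groups of 3 replicates were too small for a test of single outlying samples.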

How the results depend on the processing

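Hashtag numbers did not pair the replicates, the correlation of same-numbered replicates lying between -0.092 and 0.021. With the hashtag number as a replicate block, interstitial macrophages had 2 genes past the threshold, neutrophils 5, endothelial cells 5, fibroblasts 0 and epithelial cells 21. DESeq2 gave 12 in interstitial macrophages, 6 in fibroblasts and 22 in epithelial cells. With no filter on low counts 74, 20, 56, 94 and 190 genes passed in macrophages, neutrophils, endothelial cells, fibroblasts and epithelial cells. With LAIR1KO replicates alone 1, 0 and 0 passed in macrophages, fibroblasts and epithelial cells. With hashtags called by their lead over the next one (the margin rule) 4, 2, 13 and 0 passed in macrophages, endothelial cells, fibroblasts and epithelial cells. With at least 20 cells, or at least 3 panel genes, 0 passed in fibroblasts. With a second lineage counted from 10% of the first, 26 passed in endothelial cells and 2 in fibroblasts. With at most 1 UMI of other lineages, chosen after the data were seen, 6 passed in fibroblasts. Without the barcodes of highest UMI number 0 passed in epithelial cells, where Gsto1 (0.12) and Cyp2f2 (0.26) turned to above 0. Counts with 1 replicate left out ranged from 0 to 1 in macrophages, 1 to 8 in neutrophils, 2 to 9 in endothelial cells, 0 to 0 in fibroblasts and 0 to 105 in epithelial cells, the last without LAIR1KO normal replicate 2, which leaves 1 normal epithelial replicate. Lypd2 ranged from -4.72 to 1.55, the latter without LAIR1KO normal replicate 3. The count of genes differing across types was 69 with at least 1 UMI in every type, 27 with the margin rule (5 types), 15 with 20 cells and 1 with at most 1 UMI of other lineages (2 types each), and 46 to 76 with 1 replicate left out, the last over 5 types, so that these do not compare like fits. Against WT, DESeq2 gave 48 genes in macrophages, 3 in neutrophils, 3 in endothelial cells and 13 in fibroblasts, the margin rule 93, 25 and 28 in macrophages, neutrophils and fibroblasts, and without genes on X and Y 2 remained in neutrophils, 0 in endothelial cells and 0 in epithelial cells. Of 13 shares 8 passed with all hashtag-assigned cells as the denominator, 2 with 3 panel genes, and 2 to 7 with 1 replicate left out. With 3 panel genes the T cell share had 2.11 (adjusted p = 0.0501) and the fibroblast share 1.24 (adjusted p = 0.0501). With 1 replicate left out they ranged from 1.63 to 2.63 and from 0.86 to 1.52. Over whole libraries the NK cell ratio was 2.19 and the T cell ratio 1.32. The interstitial macrophage share turned to -0.058 with the margin rule. With 1 replicate left out the endothelial share ranged from -1.85 to 0.79, above 0 without LAIR1KO normal replicate 1, and the mural share from -0.13 to 1.07, below 0 without that replicate or tumor-bearing replicate 2. Of 329 values of the named genes under alternatives, 228 kept sign and call, 98 kept the sign only and 3 changed sign. Where not named above, the cause of a change was not tested. Epithelial cells could not be fitted with 20 cells or with at most 1 UMI of other lineages.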
